A study of Mus musculus with 5 samples.

Results

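The fatty acid elongases Elovl1, Elovl2, Elovl3, Elovl5 and Elovl6 and the fatty acid desaturases Fads1 and Fads2 were described in mouse hepatocytes between the fed state and 24 h of fasting. They are 7 of the 32285 genes in the files and were found by symbol, each of them once. The members were chosen by their measured CPM in these libraries, because Elovl3 and Elovl6 moved strongly and in opposite directions, so the levels of those 2 genes over time are a description and support nothing. The cells came from male C57BL/6J mice (liver, wild-type, normal chow), and no allele or drug differed between groups. Mice of all groups had been trained for 3 days with 16 h of fasting and 8 h of feeding. The fed group had eaten chow with 20% sucrose water for 4 h, and the other groups were then kept without food for 4, 8, 16 or 24 h. The clock hours of sampling were 13, 17, 21, 5 and 13, so fasting time and hour of day cannot be told apart except between the fed and the 24 h group. Each group was 1 library of the 10x Genomics 3' chemistry, and how many mice it came from is not stated in the labels.

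Elongases add a pair of carbons from malonyl-CoA to an acyl-CoA in the endoplasmic reticulum, in the rate-limiting step of a cycle that the other elongation enzymes complete. ELOVL6 lengthens palmitate made by de novo lipogenesis, ELOVL3 and ELOVL1 make longer saturated and monounsaturated chains, and ELOVL2 and ELOVL5 act on polyunsaturated chains. FADS2 and FADS1 place double bonds in the essential fatty acids on the way to arachidonate and docosahexaenoate. In liver, Elovl6 is known as a target of the lipogenic factor SREBP-1c, and Elovl3 is known for a strong daily rhythm and for its dependence on steroid hormones.

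With 1 library a group there is no replicate check, and no test between groups was made. A level is a sum of UMIs (unique molecule counts) over all hepatocytes of a library, scaled to 1000000 UMIs of nuclear-encoded genes (CPM). Intervals are 95% and exact (Poisson for a level, binomial for a ratio or share), and cover counting error only. A gene was counted as higher or lower where the ratio was at least 2-fold and either library had 50 CPM or more. Counts of 3' UMIs do not scale with transcript length, and all levels of different genes set side by side are on this scale.

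Hepatocytes were barcodes with at least 1000 UMIs, 500 genes and 2 to 30% mitochondrial UMIs, without those marked by another cell type. They numbered between 2704 (8 h) and 9079 (16 h) per library, 28564 in all, of 10000 barcodes a library. Their summed nuclear-encoded UMIs were between 33464390 and 45506263. The median UMI count per cell ranged from 4406 at 16 h to 15060 at 8 h, and the median mitochondrial share from 9.80% at 8 h to 19.1% at 4 h. The 8 hepatocyte markers summed to between 96060 and 120534 CPM, with none at 0, while the endothelial list summed to 5.86 to 37.8 CPM and the neutrophil list to 53.9 to 249 CPM (highest at 24 h). The part of these differences in the results was not tested. Between library pairs 1 to 17 hepatocyte barcodes were shared, 73 in all.

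Elovl6 was the most abundant elongase transcript of fed hepatocytes and was low at every fasting time. It lies on chromosome 3 from 129532355 to 129638495, forward strand (GRCm38, GENCODE M21). In time order its levels were 870 (860 to 879), 61.5, 22.6, 69.5 and 59.1 CPM, from 32590, 2797, 764, 2325 and 2216 UMIs. The fed library stood apart from all 4 fasted ones, and the lowest value was that of 8 h. Against the fed library it was 14.2, 38.5, 12.5 and 14.7-fold lower at the successive fasting times, which are log2 ratios of -3.82, -5.27, -3.65 and -3.88. The 24 h library, with the clock hour of the fed one, was above the 8 h low point but still 14.7-fold below fed. The antisense gene Gm35986, which overlaps Elovl6, had 970, 608, 161, 120 and 227 UMIs in time order, and whether counting used the strand is not stated in the labels.

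Elovl3 followed another course, with a single high point at 8 h. It lies on chromosome 19 from 46131897 to 46135694, forward strand. In time order it had 6.46 (5.67 to 7.33), 234, 799 (789 to 808), 61.4 and 14.98 (13.8 to 16.3) CPM, from 242, 10646, 26990, 2055 and 562 UMIs. The ratio to the fed library was 36.2-fold at 4 h, 124-fold at 8 h and 9.51-fold at 16 h. At 24 h it was still 2.32-fold (log2 1.21, interval from 0.99), but below the 50 CPM minimum in both libraries. From 8 h to 16 h the level was 13.0-fold lower, and from 16 h to 24 h a further 4.10-fold lower. Pitx3, which overlaps Elovl3 on the other strand, had at most 13 UMIs in any library. The folds of Elovl3 against fed rest on a fed level of 6.46 CPM. Barcodes with under 1% mitochondrial UMIs, described further on, had 7.18 CPM of Elovl3 fed and 83.7 at 16 h.

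Elovl1, on chromosome 4 from 118428093 to 118432953 (forward), had the lowest level of the 7 genes at 4 h and 16 h, while Elovl3 was lower than it in the fed and 24 h libraries and Elovl6 at 8 h. Its levels were 43.7, 25.6, 31.3, 24.2 and 16.7 CPM in time order, under the 50 CPM minimum throughout. All fasted values lay below the fed one, and the 24 h value had a log2 ratio of -1.39, which was not counted for lack of the minimum.

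The genes of the polyunsaturated branch differed less between libraries than Elovl3 and Elovl6. Elovl2, which acts on the longest polyunsaturated chains and lies on chromosome 13 from 41182381 to 41220405, had 432, 461, 347, 508 and 383 CPM. All its log2 ratios to the fed library lay between -0.32 (8 h) and 0.23 (16 h). Elovl5, which lengthens the shorter polyunsaturated chains (chromosome 9, 77917364 to 77984519), had 226, 235, 209, 388 and 178 CPM. Its 16 h library was high (log2 0.78 against fed), and from 16 h to 24 h it was lower with a log2 ratio of -1.12.

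Fads1 and Fads2 lie near each other on chromosome 19, at 10182888 to 10196877 (forward) and 10062765 to 10101746 (reverse), but their courses differed. Fads1 had 251, 455, 452, 234 and 312 CPM, so the 4 h and 8 h libraries were high (log2 0.86 and 0.85 against fed) and 16 h was back near fed (-0.11). Its ratio at 16 h to 8 h was -0.95, just short of 2-fold, and 3 of 11 alternative scalings and barcode sets put it past 2-fold (down to -1.12 with TMM scaling). Fads2 had 363, 479, 307, 292 and 486 CPM, high at 4 h and 24 h (0.40 and 0.42) and low at 8 h and 16 h (-0.24 and -0.31). Of the UMIs of both genes, Fads1 thus made up 40.9%, 48.7%, 59.6% (59.0 to 60.2), 44.5% and 39.1% in time order. Only at 8 h were there more Fads1 than Fads2 UMIs, with a ratio of 1.47 (1.44 to 1.51).

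The promoter windows of Elovl6 and of the fatty acid synthase gene Fasn (2031 CPM fed and 83.2 to 127 in the fasted libraries), which were low together, and that of Elovl5, which like Elovl2 had its highest level at 16 h and stood further above fed there (log2 0.78 against 0.23), are shown from RefSeq (GRCm38.p6) as the 250 bases before the annotated start, 5′ to 3′ on the gene's strand. The Elovl6 window is chr3:129532136-129532385, that of Fasn chr11:120824548-120824797 (reverse strand) and that of Elovl5 chr9:77917115-77917364. Capitals mark matches on either strand to the E-box CACGTG, the D-box TTATGTAA, the sterol element TCACNCCAC, the ROR half-site TAGGTCA and CCAAT.
Elovl6: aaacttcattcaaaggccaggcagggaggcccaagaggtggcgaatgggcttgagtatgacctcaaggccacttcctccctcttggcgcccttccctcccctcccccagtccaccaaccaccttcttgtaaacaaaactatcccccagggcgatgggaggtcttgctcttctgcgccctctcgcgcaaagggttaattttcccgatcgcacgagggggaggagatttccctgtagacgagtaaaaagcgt
Elovl5: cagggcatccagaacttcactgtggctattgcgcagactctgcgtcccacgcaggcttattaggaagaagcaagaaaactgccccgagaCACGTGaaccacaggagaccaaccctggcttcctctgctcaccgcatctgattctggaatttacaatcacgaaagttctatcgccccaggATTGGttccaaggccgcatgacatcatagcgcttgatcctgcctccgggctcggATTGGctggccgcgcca
Fasn: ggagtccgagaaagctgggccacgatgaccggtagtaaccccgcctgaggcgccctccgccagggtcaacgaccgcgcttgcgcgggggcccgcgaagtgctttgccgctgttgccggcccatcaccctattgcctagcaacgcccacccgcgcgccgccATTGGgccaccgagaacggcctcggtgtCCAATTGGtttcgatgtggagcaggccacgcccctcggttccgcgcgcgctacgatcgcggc
The Elovl6 window held 0 of these matches, which says only that the letters are not in these 250 bases. The GC box GGGCGG was also searched on both strands and was in none of the 3 windows. The Elovl5 window held 1 E-box and 2 inverted CCAAT, and that of Fasn 3 CCAAT matches on both strands, with 2 of them overlapping. Of all 32851 windows of this length, 6.02% held the E-box, 0.819% the D-box, 1.05% the sterol element, 2.23% the ROR half-site, 33.8% CCAAT and 32.7% the GC box. RefSeq windows matched 5 of the 7 members: Elovl1, Elovl2, Elovl5, Elovl6 and Fads2. Among the member windows not shown, those of Elovl1 held 5 and 2 GC boxes, those of Elovl2 5 and 0, and that of Fads2 1. Each of them held 0 E-boxes.

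**Figure D1:**
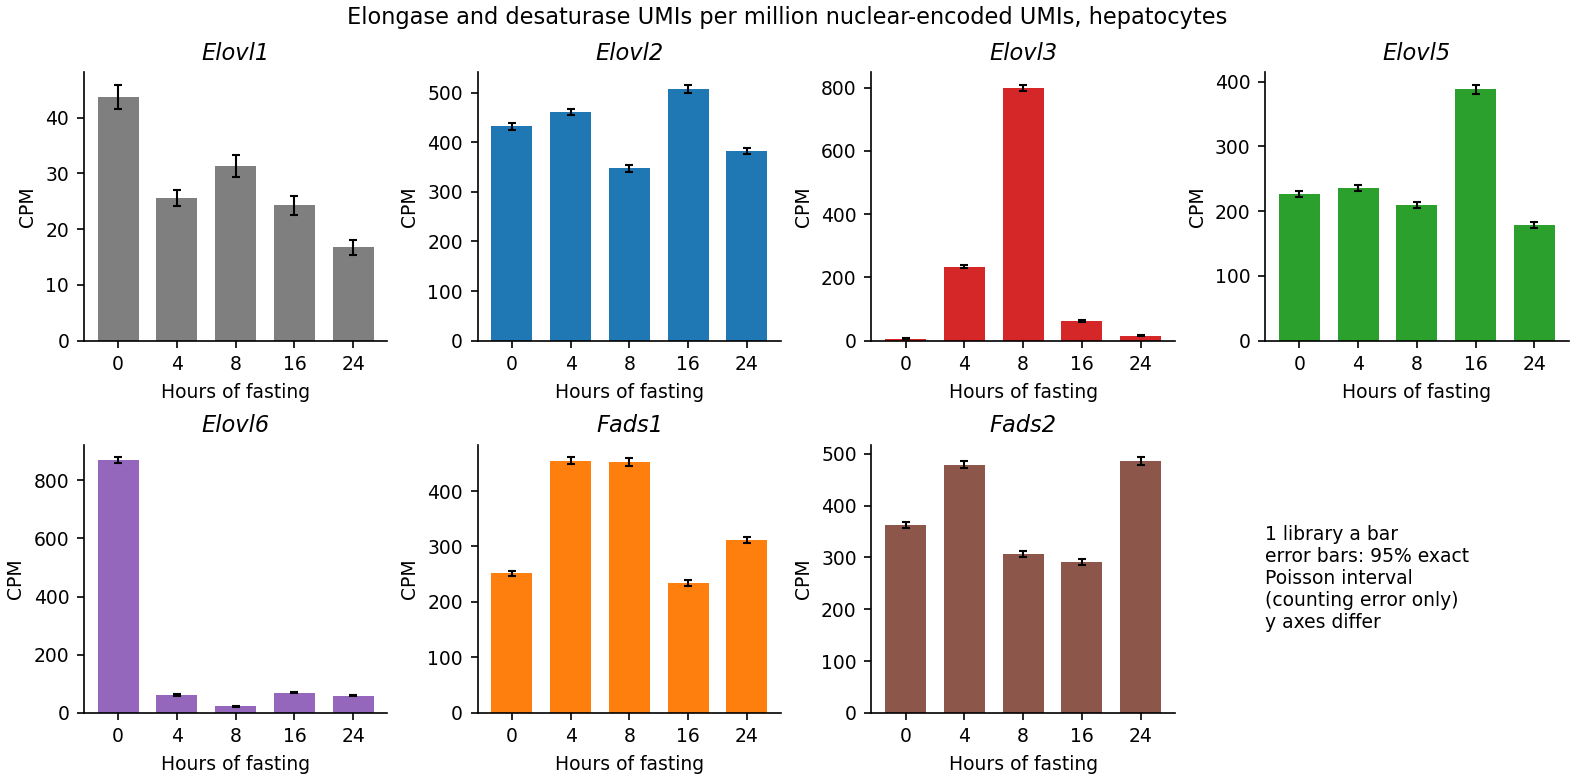
Level of each gene (y axis, CPM of nuclear-encoded UMIs, a different scale in each panel) by hours of fasting (x axis); a bar is 1 library of hepatocytes and error bars are 95% Poisson intervals for counting error. Elovl6 stands at 870 CPM fed and under 70 in all fasted libraries, Elovl3 peaks at 799 CPM at 8 h, and the other genes move within a narrower range.

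Counted over the 7 genes, Elovl3 was higher and Elovl6 lower at 4, 8 and 16 h, and at 24 h only Elovl6 was counted, as lower. These calls come from the contrast by which the genes were chosen. Of all genes meeting the minimum, 5.85% were higher and 5.91% lower at 4 h, 8.07% and 11.7% at 8 h, 3.38% and 4.05% at 16 h, and 6.79% and 10.6% at 24 h. Of the members, 6, 6, 6 and 5 met the minimum in these comparisons. Between neighbouring times, 8 h against 4 h again had Elovl3 higher and Elovl6 lower, where 1.14% and 2.22% of genes were. Under 2 of 13 alternative settings 0 members were counted as lower in that step. At 16 h against 8 h Elovl6 was higher and Elovl3 lower, beside 11.3% and 9.74% of genes. At 24 h against 16 h, 0 members were higher and 2 (Elovl3 and Elovl5) lower, beside 7.53% and 6.92%. Over the members meeting the minimum the median log2 ratio to fed was 0.25, -0.18, 0.064 and -0.17 in time order, against -0.026, -0.037, 0.0052 and -0.025 over all genes meeting it. Over all 7 members, with those under the minimum, it was 0.095, -0.24, -0.11 and -0.17, so its sign at 16 h depended on which members were included. The comparisons with the fed library share that library.

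How called genes split into higher and lower depended on scaling. Of the called genes, 49.7%, 40.7% and 39.1% were higher at 4, 8 and 24 h against fed, and 53.8% and 52.1% at 16 h against 8 h and 24 h against 16 h. With TMM scaling the shares at 4 and 8 h were 63.0% and 56.2%, and those of the 2 later steps 34.9% and 64.1%. With median-of-ratios scaling they were 61.7%, 55.9% and 50.9% against fed and 37.8% and 64.0% for the steps. With mitochondrial UMIs in the denominator, 36.7% were higher at 4 h against fed, and at 8 h against 4 h the share went from 34.0% to 62.8%. TMM scaling moved the median log2 ratio of 2007 genes at 4, 8 and 24 h against fed from 0.019, -0.0070 and 0.024 to 0.15, 0.16 and 0.13. Elovl3 and Elovl6 kept their direction against fed under all 11 alternative scalings and barcode sets, Elovl3 at 8 h between 6.82 and 7.12 and Elovl6 at 8 h between -5.30 and -5.10. Shifts of the size above could hardly turn ratios so large, for which the 2 genes were chosen, so this lends them no support.

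The make-up of the elongase pool differed between the libraries. Summed over the 5 elongases the level was 1578, 1017, 1409, 1051 and 652 CPM in time order. Elovl6 made up 55.1% (54.7 to 55.5) of these UMIs in the fed library and 1.60% at 8 h, where Elovl3 made up 56.7% (56.2 to 57.1). At 4 h, 16 h and 24 h Elovl2 had the largest share, with 45.3%, 48.3% and 58.7%. For every Elovl6 UMI there were 0.00743, 3.81, 35.3 (32.9 to 38.0), 0.884 and 0.254 Elovl3 UMIs in time order. The pool of both desaturases was 614, 934, 759, 525 and 798 CPM, and so did not follow the elongase pool.

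**Figure D2:**
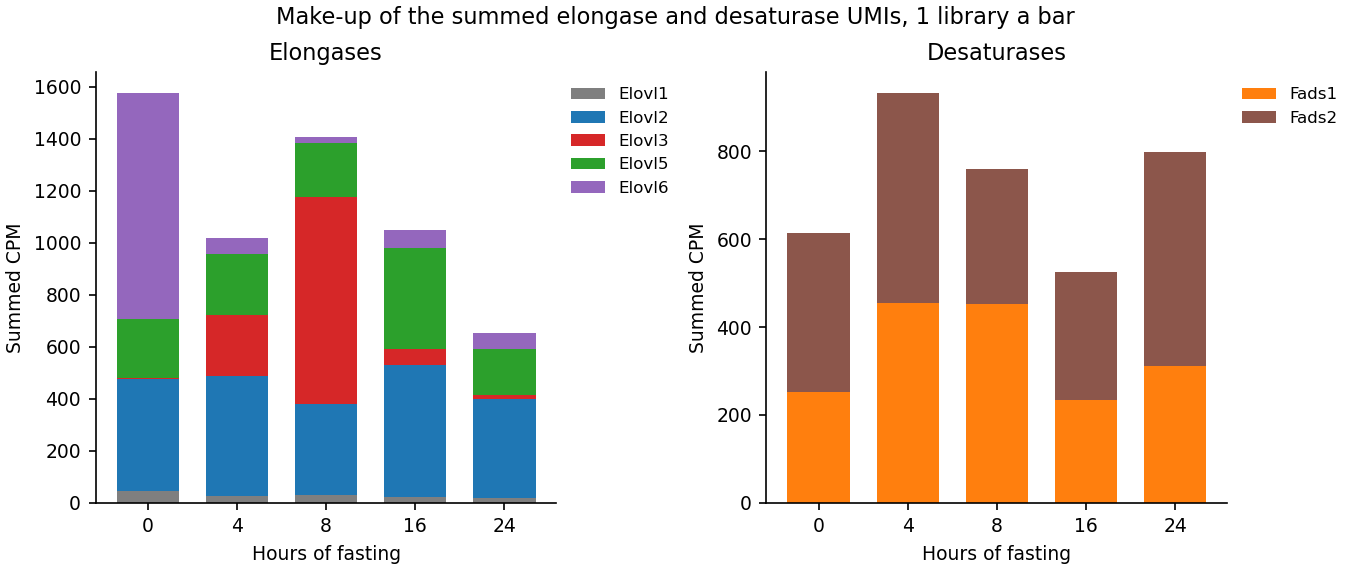
Summed CPM (y axis) of the 5 elongases on the left and the 2 desaturases on the right by hours of fasting (x axis), with the part of each gene in colour; a bar is 1 library. The Elovl6 part of 55.1% in the fed bar contrasts with an Elovl3 part of 56.7% at 8 h, and Elovl2 holds a band of 347 to 508 CPM throughout.

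Other genes of the pathway were read from 7 lists of 74 genes. The malonyl-CoA and fatty acid supply list holds enzymes of synthesis and also Mlycd, the decarboxylase that removes malonyl-CoA. All 8 genes met the minimum, none was higher and 4, 4, 4 and 5 were lower at 4, 8, 16 and 24 h, with median log2 ratios of -0.76, -0.78, -1.40 and -2.12. Fasn, the fatty acid synthase that makes palmitate, had 2031, 83.2, 93.8, 127 and 114 CPM. Acly, which makes cytosolic acetyl-CoA, had 1872, 430, 161, 224 and 175 CPM. Acaca, the acetyl-CoA carboxylase that makes malonyl-CoA, had 276, 52.8, 37.5, 50.9 and 46.8 CPM. For these 3 genes, as for Elovl6, the fed library lay above all others. Me1, the malic enzyme that supplies NADPH, had 444, 220, 176, 333 and 135 CPM. Acacb, the carboxylase isoform of the mitochondrial surface, had 64.6, 45.5, 91.1, 16.3 and 11.3 CPM and so was highest at 8 h. Mlycd also had its highest level at 8 h, with 64.9, 61.9, 117, 82.7 and 92.9 CPM (log2 0.85, 0.35 and 0.52 against fed at 8, 16 and 24 h).

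The other enzymes of the elongation cycle had smaller ratios. Of that list of 9, 7 met the minimum against fed, 0 were higher, and 1, 2, 0 and 0 were lower, with medians of -0.24, -0.26, -0.32 and -0.44. Tecr, the reductase of the last step of the cycle, had 217, 95.6, 107, 142 and 115 CPM. The next 3 genes were picked for their roles after their values were seen. Hacd2, a dehydratase of the cycle, had 59.9, 46.6, 26.2, 76.8 and 44.3 CPM. Hsd17b12, the ketoreductase, had 177, 150, 148, 132 and 111 CPM, and the fed value was again the highest. Cyb5a, the electron carrier used by desaturases, had 1468, 1689, 1229, 1431 and 1374 CPM.

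Among other family genes, 3 of 10 met the minimum (Scd1, Fads6 and Degs1), and the other 7 had at most 1.23 CPM. Medians were -0.19, -0.50, 0.32 and -0.13. Scd1, the stearoyl-CoA desaturase that works beside ELOVL6, had 7603, 6000, 5172, 9459 and 2456 CPM. Of the 4 fasted libraries only that of 24 h was at least 2-fold lower (log2 -1.63), so for each Elovl6 UMI there were 8.74 Scd1 UMIs fed and 97.6, 229, 136 and 41.6 in the fasted libraries. Acyl-CoA activation and use had 0, 1, 0 and 1 of 10 genes higher and 2, 2, 3 and 3 lower, with medians of -0.16, -0.51, -0.71 and -0.65. Gpam, the mitochondrial acyltransferase of triglyceride synthesis, had 636, 201, 74.1, 201 and 140 CPM, and Agpat3, a lysophospholipid acyltransferase, was high at 8 h and 24 h (239 and 230 CPM against 107 fed). Acsl3, an acyl-CoA synthetase, had 94.8, 38.4, 13.7, 57.9 and 35.3 CPM. Of the 8 genes of peroxisomal shortening, 6 met the minimum, none of which was 2-fold higher or lower against fed, with medians of 0.10, 0.081, 0.40 and 0.49. Abcd2, a peroxisomal transporter of very long acyl-CoA that lay under the minimum, had 14.9, 14.8, 4.88, 34.2 and 43.0 CPM (log2 -1.61, 1.19 and 1.52 against fed at 8, 16 and 24 h).

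Of 13 transcriptional regulators, 12 met the minimum, with 1, 3, 1 and 1 higher and 3, 3, 4 and 5 lower against fed, and medians of -0.23, 0.083, -0.33 and -0.29. Srebf1, which encodes SREBP-1c, had 441, 88.3, 23.0, 64.1 and 70.9 CPM, with its low point at 8 h as for Elovl6. Thrsp, a lipogenic regulator, had 3606, 1108, 458, 137 and 477 CPM, with its low point at 16 h. Insig2, which holds SREBP precursors in the endoplasmic reticulum, had 188, 547, 783, 513 and 252 CPM and was highest at 8 h, while Insig1, a sterol-regulated gene of the same function, had 1186, 420, 182, 563 and 273 CPM. Ppara, the fatty acid receptor of fasting, had 57.4, 95.5, 79.4, 95.8 and 135 CPM. Mlxipl, which encodes the carbohydrate-responsive factor ChREBP, had 172, 109, 91.7, 74.4 and 61.9 CPM, lower at each time than at the one before. Nr1h3, the oxysterol receptor LXR alpha, had 66.3, 75.5, 102, 53.5 and 62.4 CPM.

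Of 16 clock genes, 9, 10, 9 and 7 met the minimum against fed, with 0, 2, 1 and 0 higher and 2, 5, 2 and 1 lower, and medians of -0.41, -0.66, 0.41 and -0.10. Per2, a repressor of the clock, had 58.1, 9.03, 1.60, 9.41 and 17.8 CPM. Dbp, an output factor of the clock, had 55.3, 6.17, 1.89, 79.8 and 62.8 CPM. Nr1d1, the repressor REV-ERB alpha, had 13.4, 3.25, 3.23, 125 and 8.69 CPM, and Nr1d2, its paralog, 68.2, 39.0, 18.5, 102 and 71.9 CPM. Per2 and Dbp were lowest at 8 h, the time at which Elovl3 was highest and Elovl6 lowest, and Nr1d1 was as low at 4 h as at 8 h. The 2 clock genes counted as higher at 8 h also had their highest level there. Nfil3, a repressor that binds D-boxes, had 15.9, 37.9, 61.2, 13.2 and 17.8 CPM, and Clock, an activator of the clock, 32.9, 59.6, 70.7, 64.4 and 36.7 CPM. Npas2, a paralog of Clock, was also highest at 8 h but under the minimum (4.97 CPM, at most 0.396 elsewhere). Apart from the fed and 24 h libraries, both of clock hour 13, hour of day and fasting time cannot be told apart in these values.

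The genes nearest to each member were sought among 3287 genes with at least 50 CPM in any library, as those with the smallest root-mean-square difference of centred log2 (CPM + 5) over the 5 libraries. For Elovl6 these were Cxcl1 (0.27), Fasn (0.48), Srebf1 (0.50), Creld2 (0.59) and Mid1ip1 (0.63). Cxcl1 had 134, 8.90, 0.53, 16.0 and 9.81 CPM in time order. At 8 h it lay far below the 5 CPM added before the log, so its first place depends on that addition. Elovl3 had no neighbour as near: Cdkn1a (0.97), Gm43305 (1.03), Igfbp1 (1.13), Mt2 (1.17) and Mt1 (1.195). Cdkn1a, a cell cycle inhibitor, had 2.30, 79.1, 264, 1.58 and 7.31 CPM, so it was highest at 8 h but, unlike Elovl3, below its fed level at 16 h. The metallothionein Mt2 had 26.6, 1840, 1717, 506 and 405 CPM and was already high at 4 h. The members with small changes had close neighbours: Fermt2, Sult2a8 and Cmas for Elovl2 (0.022 to 0.045), Slc38a2, Ypel5 and C4bp for Elovl5 (0.084 to 0.10), Rplp1, 4931406C07Rik and Krtcap2 for Fads1 (0.052 to 0.092), Tmem126a, Fmo1 and Fdx1 for Fads2 (0.060 to 0.091), and Ddost, Cs and Rangap1 for Elovl1 (0.051 to 0.077).

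Along the lobule axis, with the barcode limits given above, Elovl3 had the largest ratio of the members between the ends in the fed, 4 h, 8 h and 16 h libraries, and Elovl6 at 24 h. With at most 15% mitochondrial UMIs the 24 h ratio of Elovl6 was below those of Elovl1, Elovl2, Elovl5, Fads1 and Fads2 (values further on). Elovl3 was highest in the same part at every time. Hepatocytes of each library were ranked by their ratio of Cyp2f2, a periportal cytochrome, to Cyp2e1, a pericentral one, and cut into 5 equal parts, from part 1 (Cyp2f2 side) to part 5 (Cyp2e1 side). In the fed library Elovl3 had 3.13, 3.28, 4.37, 5.21 and 20.8 CPM from part 1 to part 5. At 4 h it had 179, 187, 207, 281 and 429 CPM. At 8 h it had 752, 713, 696, 796 and 1135 CPM. At 16 h it had 26.5, 23.6, 27.3, 61.7 and 177 CPM. At 24 h it had 12.6, 12.7, 15.3, 15.7 and 23.5 CPM. Part 5 was thus the highest in all 5 libraries, and parts 1 to 3 lay close together. Those 3 parts also differed little in Cyp2e1, with 0, 1.21 and 24.0 CPM at 8 h and 0.13, 4.07 and 40.5 at 24 h. In part 5 Cyp2e1 had 6440 and 3962 CPM at these times.

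The log2 ratios of part 1 to part 5 of Elovl3 were -2.73 (-3.44 to -2.07), -1.26, -0.59 (-0.65 to -0.54), -2.73 (-2.98 to -2.49) and -0.90 (-1.32 to -0.47) in time order. The ratio nearest 0 was that of 8 h, where the level was highest, but its interval lay inside that of 24 h, which was nearer 0 (-0.34) without a lower limit on mitochondrial UMIs. Part 5 held 47.9% (41.5 to 54.4) of the Elovl3 UMIs of the fed library but 14.9% of its nuclear-encoded UMIs. At 8 h it held 23.0% beside 16.2%, and at 16 h 55.2% (53.0 to 57.3) beside 19.2%. Elovl3 kept the Cyp2e1 side under all 6 alternative rankings and barcode sets.

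Seen by side, Elovl3 was 7.91 log2 units above fed at 8 h in part 1 (7.32 to 8.57) and 5.77 in part 5 (5.51 to 6.05), from a fed level in part 1 that rests on 23 UMIs. At 16 h the sides had 3.08 and 3.09. At 24 h part 1 had 2.01 (1.35 to 2.74), and in part 5 the difference from fed was 0.18 (-0.23 to 0.59), within counting error. Part 5 thus was near its fed value at 24 h and part 1 above it. These intervals cover counting only, and the parts are cut by rank in each library, so a part need not hold the same cells of the lobule at each time. At 24 h part 5 had 44.5 CPM of Glul, a pericentral gene, and 3962 of Cyp2e1, against 389 and 8097 in the fed part 5. No return of pericentral cells to their fed level is therefore read from these values.

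Elovl6 differed little along the axis while it was abundant. Fed hepatocytes had 889, 832, 843, 888 and 927 CPM from part 1 to part 5, with a log2 ratio of -0.060 (-0.11 to -0.0071). Its low level at 8 h was reached on both sides alike, with 23.2 CPM in part 1 and 24.5 in part 5 (log2 ratios to fed of -5.26 and -5.24). At 4 h the Cyp2e1 side was somewhat higher (55.3 against 71.2 CPM, log2 -0.36), a sign that 2 of 6 alternatives turned. At 24 h it had 73.3, 65.8, 61.7, 44.3 and 30.4 CPM, and the ratio of 1.27 (0.98 to 1.57) was on the Cyp2f2 side.

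Elovl2 was higher on the Cyp2f2 side in all 5 libraries, with log2 ratios of 0.31, 0.39, 0.13, 0.24 and 0.70 in time order, and under all 6 alternatives in each library (at 4 h up to 1.23 with at most 15% mitochondrial UMIs). In the fed library it had 466, 452, 444, 399 and 375 CPM, lower at each step. Elovl5 had ratios of 0.037, -0.18, -0.084, 0.046 and 0.65. Fads1 had ratios of -0.030, 0.18, 0.035, -0.13 and 0.77, and Fads2 0.090, 0.069, -0.14, 0.16 and 0.77. Elovl1 had -0.13, -0.15, 0.18, 0.022 and 0.76, with intervals that held 0 at all times but 24 h.

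Counted by the 2-fold rule, 0 members were higher on the Cyp2f2 side and Elovl3 alone on the Cyp2e1 side at 4 h and 16 h, beside 1.77% and 2.91% of genes at 4 h and 1.91% and 3.13% at 16 h. In the fed library no member was counted on either side (1.18% and 2.16% of genes), since Elovl3 lay under 50 CPM there. None was counted at 8 h (1.11% and 2.26% of genes). At 24 h Elovl6 was counted on the Cyp2f2 side, beside 1.71% of genes there and 11% on the Cyp2e1 side.

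The 24 h axis differed from the others in more than these genes. All members but Elovl3 were lower at each step from part 1 to part 5 there. Part 5 had a median of 2818.5 UMIs and 9.27% mitochondrial UMIs a cell, against 10145 and 19.4% in part 1. Glul, the pericentral glutamine synthetase, had 44.5 CPM in part 5 and 58.4 in part 1 at 24 h, whereas in the fed library it had 389 and 156. The median absolute log2 ratio of all genes between parts 1 and 5 was 0.47 at 24 h and 0.19 to 0.22 in the other libraries. With at least 3000 UMIs a cell the 24 h ratio was 1.16 for Elovl6 and 0.40, 0.37, 0.39 and 0.36 for Elovl2, Elovl5, Fads1 and Fads2. With a ranking by a score of zonation landmarks these were 0.89, 0.17, 0.21, 0.24 and 0.24. With at most 15% mitochondrial UMIs the ratios were larger, with 1.504 for Elovl6, 2.13, 1.68, 2.01 and 1.93 for Elovl2, Elovl5, Fads1 and Fads2, and 2.77 for Elovl1 in place of 0.76. Without a lower limit on mitochondrial UMIs they were 2.10 for Elovl6 and 1.84, 1.68, 1.71 and 1.68 for Elovl2, Elovl5, Fads1 and Fads2. The sizes of the 24 h gradients thus moved with the depth and mitochondrial limits, and their direction did not.

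**Figure D3:**
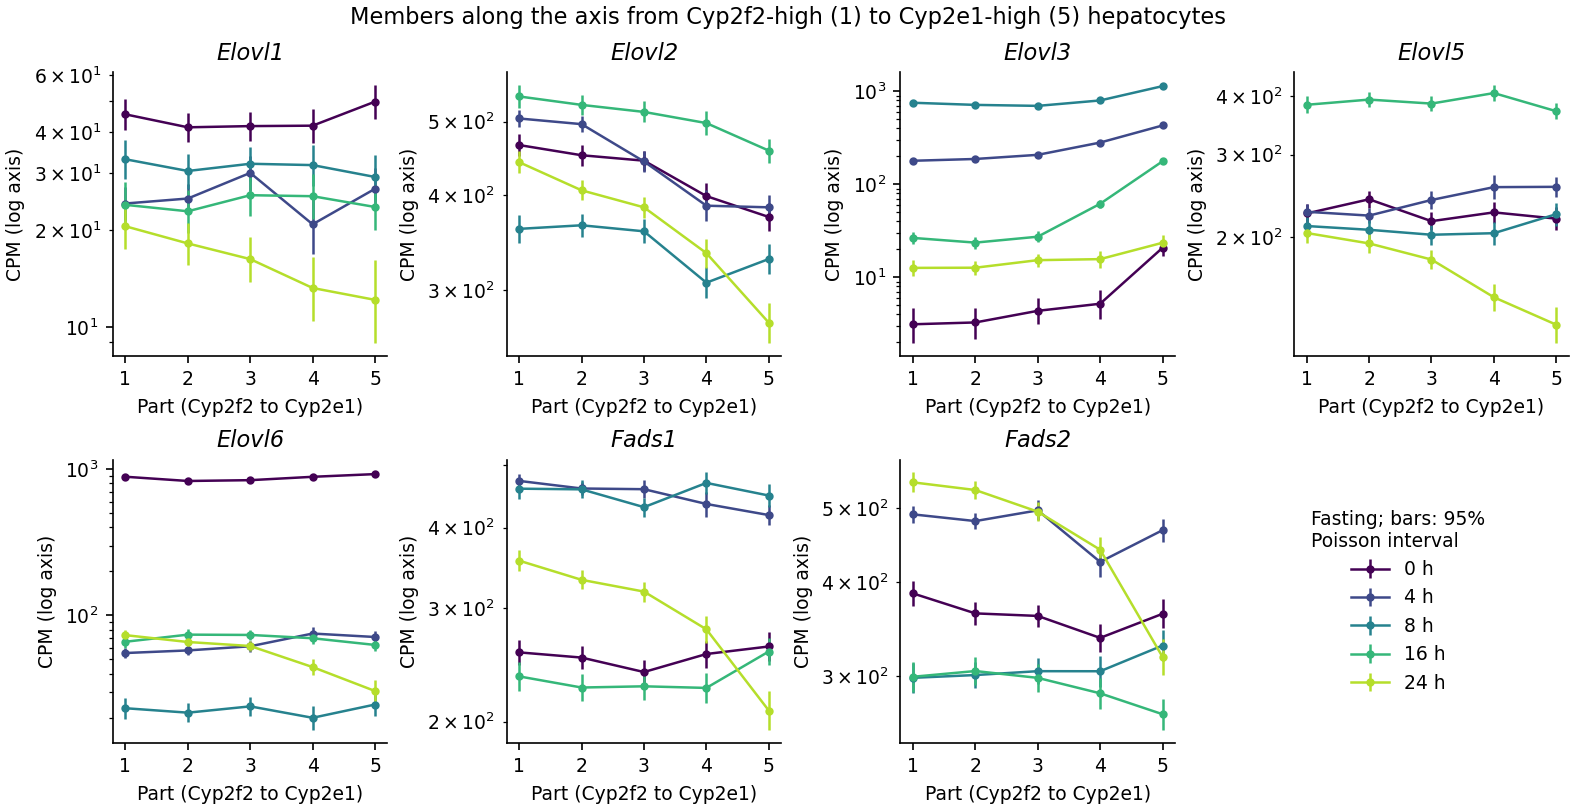
CPM on a log axis (y) of each gene in 5 equal parts of hepatocytes (x axis) ranked from the Cyp2f2 side (1) to the Cyp2e1 side (5); a line is 1 library, coloured by hours of fasting, and bars are 95% Poisson intervals. Elovl3 is highest in part 5 in every library, the fed line of Elovl6 is nearly flat, and the 24 h lines of the other genes slope down from part 1 to part 5.

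In single cells, hepatocytes were thinned to 1000 nuclear-encoded UMIs each, which left out 0 to 118 cells a library. A UMI of Elovl3 was then seen in 0.548%, 20.6%, 53.0% (51.1 to 54.9), 5.70% and 1.56% of cells in time order. Before thinning the shares were 2.95%, 66.6%, 94.9%, 17.1% and 10.2%. Elovl6 was seen in 51.9% (50.7 to 53.0) of cells fed and 4.72%, 2.61%, 6.89% and 4.92% in the fasted libraries, and before thinning in 86.4%, 35.5%, 23.0%, 21.8% and 31.1%. As a background, 118 endothelial-marked barcodes of the fed library, thinned alike, held a UMI of Elovl6 in 14.4% (8.62 to 22.1) and of Elovl3 in 0 of 118, which allows a share of up to 2.54% (3 counts of the total) or 3.08% by the exact interval. Before thinning, at a median of 1727 nuclear-encoded UMIs against 4812 in hepatocytes, they held Elovl6 in 23.7% and Elovl3 in 1.69%. At 16 h, 35 such barcodes held Elovl3 in 5.71% (0.70 to 19.2) and Elovl6 in 0 of 35, which allows up to 8.57% (3 counts of the total) or 10.0% by the exact interval. The fed and 16 h shares of Elovl3 and the 16 h share of Elovl6 (6.89%) therefore cannot be told from background in this way. The other libraries had 5 to 8 such barcodes, too few for a background.

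Thinned to 3000 UMIs, which left 2396 to 5994 cells a library, Elovl3 was seen in 86.4% of cells at 8 h with a median of 2 UMIs, and Elovl6 in 86.2% of fed cells, also with a median of 2. The variance of Elovl6 in the fed cells was 2.14 times its mean and that of Elovl3 at 8 h 1.39 times, where counting error alone gives equality. At 4 h Elovl6 was seen in 16.0% (14.2 to 18.0) of cells with Elovl3 and 17.3% (15.5 to 19.2) of cells without it, with intervals that overlapped. At 16 h the shares were 14.4% (12.1 to 17.0) and 18.7% (17.6 to 19.8), with intervals that did not overlap, but neither gene could be told from background there in the shares above. The 24 h library had 8.82% (4.64 to 14.9) and 15.8% (14.6 to 17.2), with intervals that overlapped. Since the 4 h and 24 h libraries had no usable background and the 16 h shares lay within theirs, nothing is read from these shares on whether single cells expressed both genes. Fads2 was seen in 67.7%, 74.9%, 59.8%, 56.4% and 74.5% of cells with Fads1 in time order. In cells without Fads1 the shares were 64.7%, 71.6%, 57.8%, 56.6% and 67.9%. Only at 24 h did the intervals not overlap (72.4 to 76.4 against 65.3 to 70.3). In that library both genes were also lower at each step along the axis.

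Elovl3 also stood apart from the other members in barcodes that were not used as hepatocytes. Barcodes with under 1% mitochondrial UMIs, without those marked by another cell type or by erythroid genes, numbered 1643, 4788, 5630, 395 and 4399 in time order, with median counts of 492 to 2653 nuclear-encoded UMIs. In them Elovl3 had 7.18 (22 UMIs), 242, 961, 83.7 (44 UMIs) and 12.5 CPM, close to its levels in hepatocytes, with log2 ratios of hepatocytes to these barcodes of -0.15, -0.049, -0.27, -0.45 and 0.26. The other 6 members were higher in hepatocytes in every library, by log2 ratios between 1.35 (Elovl5 at 16 h) and 3.47 (Elovl2 at 4 h). Elovl6 in the fed library had 260 CPM in these barcodes and 870 in hepatocytes (log2 1.74).

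Over all genes with 50 CPM or more in hepatocytes the median log2 ratio was 0.49, 0.61, 1.09, 0.50 and 0.44. Of these genes, 29.0%, 32.7%, 20.6%, 20.1% and 45.2% had a lower ratio than Elovl3, and for Elovl2 99.9% in the fed library. The ratio varied with transcript length. In the fed library its median was -1.03 for genes whose longest coding transcript is under 1500 bases, 0.37 between 1500 and 3000, and 0.90 from 3000 bases on, and the order was the same in the other 4 libraries. The longest transcript in GENCODE M21 is 1881 bases for Elovl3 and 1811 for Elovl1, 2782 for Elovl5, 3150 for Fads2, 3460 for Fads1, 3840 for Elovl2 and 5951 for Elovl6. Elovl1, of nearly the length of Elovl3, had ratios of 2.02, 1.65, 2.08, 1.67 (4 UMIs) and 2.08. What these barcodes are was not tested.

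**Figure D4:**
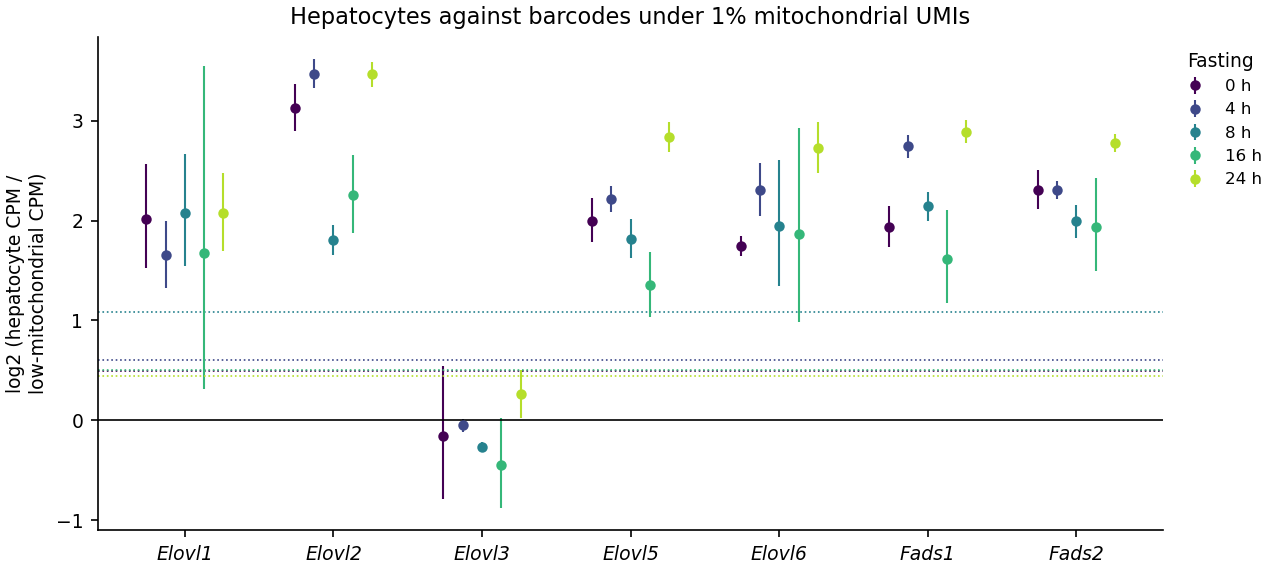
Log2 ratio (y axis) of the level in hepatocytes to that in barcodes under 1% mitochondrial UMIs of the same library, for each gene (x axis), coloured by hours of fasting, with 95% binomial intervals; dotted lines are the medians over all genes. Elovl3 lies between -0.45 and 0.26 in all libraries, while all other points lie at 1.35 or above.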

How the data were processed

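The authors deposited raw UMI counts of every gene in every barcode. Cell Ranger 6.0.1 and the mm10 build are named in the submitters' processing notes, per the labels; the annotation is not stated there. The files held 32285 genes and 50000 barcodes. Each library was assigned by the deposited barcode table, which also names no cell type, and 0 columns of values were left unused. Of the gene IDs, 99.6% were found in GENCODE M21 (GRCm38), used for positions and transcript lengths. Barcodes with at least 3 markers of another cell type making up at least 1% of nuclear-encoded UMIs were removed (28810 passed the filters, 28564 were kept). No doublet caller was used, so doublets remain; an alternative leaves out the 5% of barcodes with the most UMIs. CPM, ratios and intervals were computed in python 3.11.15 with numpy 2.4.6, and TMM factors in edgeR, with no test. The call rule was run on simulated counts with counting error only and set changes above 2-fold. That simulation held no spread between animals, so it checked the computation and not the calls. Genes of the lists were named where they differed at least 2-fold from fed at 2 or more times, besides the regulators Srebf1, Mlxipl, Ppara, Nr1h3, Nr1d1 and Nr1d2 and a few named for their role or course after their values were seen (Hacd2, Hsd17b12, Cyb5a, Scd1, Fads6, Degs1, Mlycd, Abcd2, Nfil3, Clock, Npas2). The members and lists were chosen with earlier results of these data known.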

Additional observations from a re-analysis of the deposited data

Results flagged for a closer look

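Along the Cyp2f2 to Cyp2e1 axis, 4 members had intervals on opposite sides of 0 in different libraries, where a positive log2 ratio means higher on the Cyp2f2 side. These differences between libraries were not tested. Elovl5 had 0.65 at 24 h and -0.18 at 4 h. Elovl6 had 1.27 at 24 h and -0.36 at 4 h. Fads1 had 0.77 at 24 h and -0.13 at 16 h. Fads2 had 0.77 at 24 h and -0.14 at 8 h. Without the 24 h library, Fads1 (0.18 at 4 h, 0.11 to 0.24, against -0.13 at 16 h) and Fads2 (0.16 at 16 h, 0.068 to 0.26, against -0.14 at 8 h) still had intervals on opposite sides of 0. The negative ratio of Elovl5 at 4 h turned positive under 3 of 6 alternatives (-0.41 to 0.37), that of Elovl6 at 4 h under 2 (-0.57 to 0.089) and that of Fads2 at 8 h under 1 (-0.16 to 0.057), and that of Fads1 at 16 h under 0. The highest ratio of each of these genes was that of the 24 h library, in which part 5 had a median of 2818.5 UMIs a cell and Glul was not higher on the Cyp2e1 side. At 4 h, part 4 had a median of 2380.5 UMIs against 20655.5 in part 2. With at least 3000 UMIs a cell the 24 h ratios of the 4 genes were 0.37, 1.16, 0.39 and 0.36 in the same order.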

How the results depend on the processing

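No paired analysis was possible because each time label has 1 library, and for the same reason no library could be left out. The ratios were recomputed under 11 alternative barcode sets and scalings, the counts also under 2 other thresholds, and the axis under 6. No called ratio changed sign. With a 1.5-fold threshold 2 members in place of 1 were higher at 4 h, 8 h and 16 h against fed, with Fads1 added at 4 and 8 h and Elovl5 at 16 h. At 8 h 2 were also higher with TMM and with median-of-ratios scaling, where Fads1 reached 1.02 and 1.01. At 16 h against 8 h, 2 members in place of 1 were lower, with Fads1 added, with all UMIs in the denominator, TMM or median-of-ratios scaling or a 1.5-fold threshold. At 24 h 2 members were lower with the denominator without genes over 1% of UMIs or with a minimum of 10 CPM, which also put 1 member, Elovl3, higher. With at most 15% mitochondrial UMIs the ratio of Elovl6 at 8 h to 4 h was -0.92 in place of -1.44, so 0 members were lower there, as under 2 of 13 settings in all. The same limit turned Elovl2 and Elovl5 at 4 h against fed to -0.42 and -0.38, and their signs turned under 4 and 5 of 11 alternatives. Elovl5 also turned at 8 h against fed under 2. At 8 h against 4 h Elovl5 turned under 3, Fads1 under 7 and Elovl2 under 1. At 24 h against 16 h Fads1 turned under 1. Without a lower limit on mitochondrial UMIs Fads1 at 24 h turned to -0.076. The 15% limit took the genes lower at 4 h from 174 to 351, a 10 CPM minimum gave 422, and TMM lowered the genes higher at 16 h against 8 h from 347 to 229. Along the axis the signs of Elovl1, Elovl5, Elovl6, Fads1 and Fads2 turned in at least 1 library under 1 or more alternatives, and those of Elovl2 and Elovl3 in none. In shallow libraries such as 16 h, with a median of 3765 nuclear-encoded UMIs, a gene under 50 CPM gives few UMIs a cell, and no library gives the spread between animals.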

Other observations

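Of the other elongase and desaturase genes, Elovl4, Elovl7, Scd2, Scd3, Scd4 and Degs2 each had less than 1 CPM in every library, at most 36 UMIs in any, and Fads3 had between 0.359 and 1.23 CPM. Fads6 had 109, 95.7, 77.02, 121 and 99.4 CPM and Degs1, the dihydroceramide desaturase, 75.6, 79.3, 84.9, 103 and 77.5 CPM in time order. The ratio of Elovl2 to Elovl5 UMIs was 1.91, 1.96, 1.66, 1.31 and 2.15 in time order, with its lowest value at 16 h, where Elovl5 was highest. In the fed library 16.8% of cells thinned to 3000 UMIs held 5 or more Elovl6 UMIs and 13.8% held 0, and the highest count in a cell was 20.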
